A study of Mus musculus with 12 samples.

Results

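The microglia genes are 35 genes known as markers of microglia, the resident macrophages of the brain. They were chosen by symbol from a fixed list and by no rule on their values, but earlier results of these data were known. All 35 had a row among the 24421 genes counted in each library. All 35 also passed the filter on low counts, which left 15622 genes for the tests. Gene expression was measured by RNA sequencing of polyadenylated RNA in dorsal hippocampus dissected from 12 males of the strain 129sv/C57BL/6j at 4 to 5 months of age, with 1 library a mouse. The 4 groups of 3 mice were Mbnl2 KO trained, Mbnl2 WT trained, Mbnl2 KO house control and Mbnl2 WT house control. Mbnl2 encodes an RNA-binding protein that regulates splicing. Neither the training task nor the allele is described in the labels. The comparisons address whether these genes differed with training, with genotype label and with both.

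Microglia depend on the growth factor receptor Csf1r and on the transcription factor Spi1 (PU.1), which binds purine-rich sites in the promoters and enhancers of many myeloid genes. In the resting brain they carry a homeostatic signature that includes the purinergic receptor P2ry12, Tmem119 and the fractalkine receptor Cx3cr1, through which they sense neurons. They also make complement C1q, which can tag synapses for removal, and they sense lipids and debris through Trem2 and its signalling partner Tyrobp. In bulk tissue, fewer microglia and less RNA per microglial cell cannot be told apart, so each value below is the level of a transcript in the whole dissected tissue.

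The labels held against the data as follows. Total counts were 19737929 to 27427076 per library, and every member was detected in each of the 12 libraries, with 14 to 3402 counts. The 35 genes together took 0.0624% to 0.0889% of the counts. Mbnl2 itself, as a gene-level count, was at 509, 473 and 542 CPM (counts scaled to a common library size with TMM) in the trained libraries labelled KO and at 360.4, 363 and 365 CPM in the trained libraries labelled WT. It was at 488, 470.1 and 454 CPM in the house control libraries labelled KO and at 338, 315 and 324 CPM in the house control libraries labelled WT. The gene-level count was thus higher in every KO-labelled library than in every WT library, which goes against a loss of transcript. The labels do not say which exons the allele removes, so this count cannot check the genotype, and KO is used below as the label of those libraries. Markers of neighbouring tissue varied widely between libraries of a group: the summed level of 13 choroid plexus markers was 235 to 6634 CPM in KO-labelled trained, 161 to 11602 CPM in WT trained, 534 to 4327 CPM in KO-labelled house control and 279 to 22471 CPM in WT house control libraries. Summed markers of thalamus were highest in WT house control 2 and 3 and KO-labelled house control 3 (516 to 601 CPM, against 113 to 346 CPM in the other libraries), and those WT libraries also held 11337 and 22471 CPM of choroid plexus markers. Summed markers of striatum were 1359 CPM in KO-labelled trained 2, 1051 CPM in KO-labelled house control 2 and 897 CPM in WT house control 3, against at most 277 CPM in the other libraries. Results are also given without the 3 house control libraries and without replicate 2 of both KO-labelled groups. WT trained 3 (11602 CPM), KO-labelled trained 2 (6634 CPM) and WT trained 1 (5274 CPM) had more choroid plexus RNA than any KO-labelled house control library, so leaving out the 3 house control libraries does not even out that tissue between the groups.

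For 27 of the 35 members, RefSeq promoter windows of build GRCm38.p6 (250 bases before to 50 after a start, 32 windows) were searched on both strands for sequences that PU.1 and related factors are known to bind. The short core GAGGAA was present in 19 of the 32 windows (59.4%, 18 genes), against 28.3% of all 32851 windows of the same length. The longer site GAGGAAGT, which contains that core, was present in 5 of 32 windows (15.6%), against 3.20% of all windows. The ETS and IRF composite motif was present in 1 window (3.12%), that of Cd68, a lysosomal membrane protein of macrophages, against 2.72% of all windows. A match describes letters only, and no binding was measured here. Csf1r, C1qa, Tyrobp, Tmem119, Selplg, Gpr34, Spi1 and Unc93b1 had no window.

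The 5 windows with GAGGAAGT are shown because they carry the longer site, which is in capitals (read on the opposite strand it is ACTTCCTC), and each is written 5′ to 3′ along the strand of its gene. They belong to Inpp5d (chr1:87620062-87620361, plus strand), Ctss (chr3:95526536-95526835, plus strand), Cd53 (chr3:106790100-106790399, minus strand), C1qc (chr4:136892865-136893164, minus strand) and Hpgds (chr6:65144681-65144980, minus strand).
Inpp5d: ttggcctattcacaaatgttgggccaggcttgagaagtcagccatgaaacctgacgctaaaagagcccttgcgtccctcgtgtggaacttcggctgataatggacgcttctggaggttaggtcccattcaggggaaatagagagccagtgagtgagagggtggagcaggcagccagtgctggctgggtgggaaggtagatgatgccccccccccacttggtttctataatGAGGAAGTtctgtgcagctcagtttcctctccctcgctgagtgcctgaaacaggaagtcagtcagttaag
Ctss: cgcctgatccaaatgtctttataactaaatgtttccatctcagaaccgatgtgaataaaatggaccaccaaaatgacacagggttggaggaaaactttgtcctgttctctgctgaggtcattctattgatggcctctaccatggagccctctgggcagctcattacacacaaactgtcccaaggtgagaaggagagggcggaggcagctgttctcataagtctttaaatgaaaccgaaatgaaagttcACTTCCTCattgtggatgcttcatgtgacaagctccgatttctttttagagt
Cd53: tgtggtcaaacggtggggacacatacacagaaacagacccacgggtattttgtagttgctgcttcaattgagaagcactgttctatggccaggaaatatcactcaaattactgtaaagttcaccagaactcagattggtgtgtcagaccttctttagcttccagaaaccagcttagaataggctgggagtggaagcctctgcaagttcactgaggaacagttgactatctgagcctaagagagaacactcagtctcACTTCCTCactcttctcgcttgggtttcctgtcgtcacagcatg
C1qc: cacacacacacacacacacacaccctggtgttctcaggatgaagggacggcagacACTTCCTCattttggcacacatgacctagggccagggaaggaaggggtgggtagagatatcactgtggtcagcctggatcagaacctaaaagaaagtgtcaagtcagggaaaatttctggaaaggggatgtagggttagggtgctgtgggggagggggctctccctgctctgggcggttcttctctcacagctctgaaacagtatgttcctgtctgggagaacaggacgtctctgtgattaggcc
Hpgds: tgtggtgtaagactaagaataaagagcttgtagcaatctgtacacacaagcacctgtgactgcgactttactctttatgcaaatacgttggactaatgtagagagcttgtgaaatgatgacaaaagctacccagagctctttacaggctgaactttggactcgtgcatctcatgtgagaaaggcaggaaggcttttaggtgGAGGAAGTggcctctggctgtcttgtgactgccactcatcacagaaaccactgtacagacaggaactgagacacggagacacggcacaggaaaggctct
The longer site began 20 bases before the start in Inpp5d and 49 bases before it in Hpgds. In Ctss it began 2 bases before the start, in C1qc 195 bases before it, and in Cd53 6 bases after it. With edgeR, Inpp5d had the smallest p of the members in the genotype comparison of house controls (adjusted p 0.347). Hpgds had the smallest p of the members in the mean training comparison (edgeR adjusted p 0.414). Neither was called, as given below. In the authors' deposited table the smallest p of the members in house controls was that of Laptm5, whose window lacked the longer site. A link between the site and these values was not tested.

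Levels per length of exon set the order of the members, since raw CPM grows with transcript length. The length is the union of all annotated exons of a gene, which can be longer than any single transcript. It was 18313 bases for Ptprc, 7771 for Cd33 and 667 for Tyrobp. A long union lowers the value, so the order reflects this divisor as well as expression. The mean over 12 libraries ran from 37.2 CPM per kilobase for Ctss, a lysosomal cysteine protease, to 0.179 CPM per kilobase for Ptprc, which encodes the leukocyte phosphatase CD45. The complement chain C1qa (31.0 ± 3.09) and C1qb (26.6 ± 4.62 CPM per kilobase, SD, n = 12) stood next to Ctss. Below them came Csf1r at 19.2 CPM per kilobase, the integrin subunit Itgb5 at 16.6, the ADP receptor P2ry12 at 15.7 and C1qc at 14.9. Library values overlapped in 33 of the 34 pairs of neighbours in this order, the exception being Cd33 above Ptprc. Spi1 at 1.185 CPM per kilobase, and the interferon regulatory factor Irf8 at 0.799, stood among the low members. Mean levels not scaled by length were 2.66 to 111 CPM.

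The other homeostatic members were Tmem119, a membrane protein that marks microglia, Selplg, the ligand of P-selectin, the lysophospholipid receptor Gpr34, the transcription factor Sall1, P2ry13, a relative of P2ry12, Fcrls, Siglech, Olfml3, Hpgds and Slc2a5. They ran from 9.45 CPM per kilobase for Tmem119 to 0.795 for Slc2a5. Among the receptors, Cx3cr1 was at 13.05 CPM per kilobase, the integrin subunit Itgam (CD11b) at 4.39 and the granulocyte growth factor receptor Csf3r at 1.10. Below Tyrobp at 9.94 CPM per kilobase, the ITAM and ITIM group held Fcer1g at 4.33, the Fc receptor Fcgr3 at 4.23, Inpp5d at 1.64, Trem2 at 1.496 and the sialic acid-binding inhibitory receptor Cd33 at 0.557. Below Ctss, the lysosomal and cytoskeletal group held Laptm5 at 11.3 CPM per kilobase, Unc93b1 at 4.89, Cd68 at 4.56, the tetraspanin Cd53 at 3.65, Aif1 at 1.74 and Ly86 at 1.44.

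**Figure D1:**
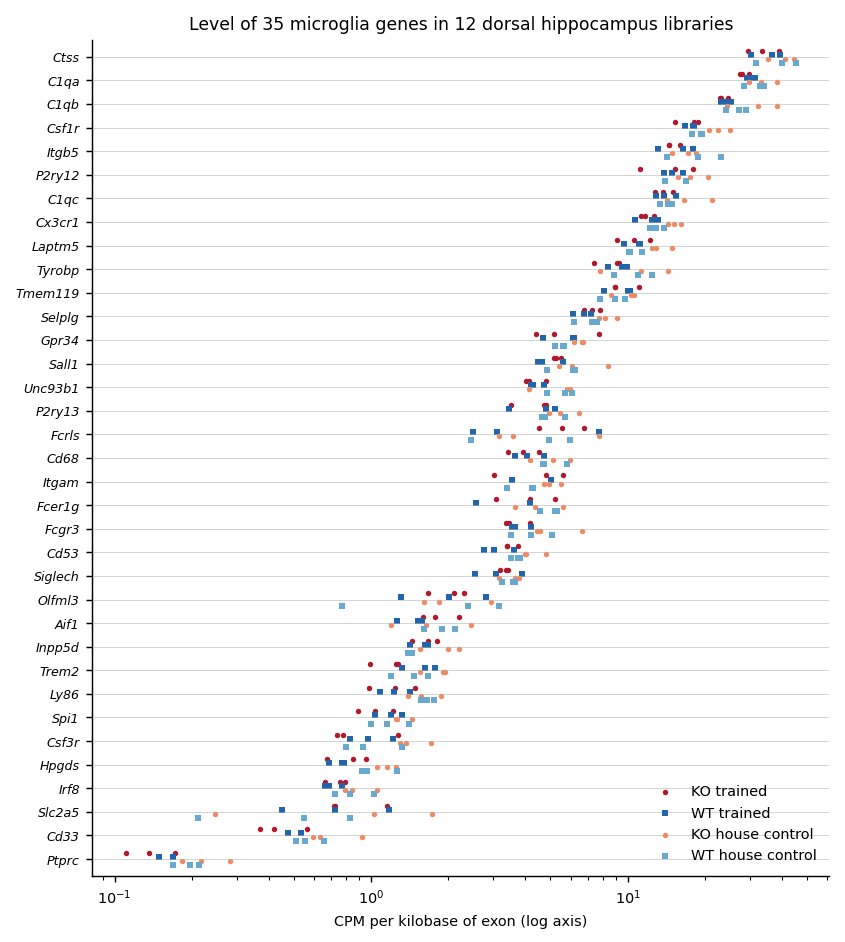
Level of each of the 35 microglia genes in CPM per kilobase of exon (log axis), one point per library, coloured by group, with genes ordered by their mean over 12 libraries. Ctss, C1qa and C1qb sit at the top and Ptprc at the bottom.

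In the homeostatic group, P2ry12 was at 39.0, 28.5 and 45.8 CPM in KO-labelled trained, 37.9, 41.9 and 35.4 CPM in WT trained, 39.98, 44.6 and 52.5 CPM in KO-labelled house control and 43.0, 35.7 and 35.7 CPM in WT house control libraries. The 4 groups overlapped. Spi1, the higher per length of the 2 regulators grouped as transcription factors (Sall1 was grouped with the homeostatic genes), was at 2.79, 2.40 and 3.29 CPM in KO-labelled trained, 3.55, 3.21 and 2.80 CPM in WT trained, 3.89, 3.39 and 3.38 CPM in KO-labelled house control and 3.81, 3.12 and 2.68 CPM in WT house control libraries. Its KO-labelled trained values lay below its KO-labelled house control values, and its other groups overlapped. The adaptor Tyrobp, the highest of the ITAM and ITIM signalling group, was at 4.94, 6.18 and 6.07 CPM in KO-labelled trained, 6.33, 6.62 and 5.59 CPM in WT trained, 5.19, 7.50 and 9.55 CPM in KO-labelled house control and 5.91, 7.33 and 8.30 CPM in WT house control libraries. Its widest group was the KO-labelled house controls. Ctss, the highest of the lysosomal group, was at 45.2, 40.1 and 52.8 CPM in KO-labelled trained, 41.2, 53.6 and 49.7 CPM in WT trained, 48.1, 55.9 and 60.4 CPM in KO-labelled house control and 42.8, 54.4 and 61.5 CPM in WT house control libraries, with all groups overlapping.

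The C1q chains assemble into the complex that starts the classical complement pathway, and their genes lie together on chromosome 4 (C1qb 136880129 to 136886187, C1qc 136889804 to 136893065, C1qa 136895917 to 136898803, GRCm38, GENCODE). C1qa was at 30.96, 29.1 and 28.6 CPM in KO-labelled trained, 31.1, 32.8 and 30.4 CPM in WT trained, 30.95, 34.5 and 39.8 CPM in KO-labelled house control and 29.5, 35.5 and 34.1 CPM in WT house control libraries. All 3 chains had negative training log2 fold changes in each genotype, from -0.43 to -0.25 in KO-labelled mice and from -0.15 to -0.02 in WT mice. None of them passed the test in any comparison.

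Training was compared within each genotype and as the mean over both. Averaged over the genotypes, 32 of the 35 members had lower fitted levels in trained than in house control mice (percent of all tested genes with a negative value: 52.3%), with a median log2 fold change of -0.23 for the members and -0.0099 for all genes tested. By role, negative values were found for the receptors (5 of 5 negative), the C1q chains (3 of 3), ITAM and ITIM signalling (7 of 7), transcription factors (2 of 2) and lysosomal genes (7 of 7), and 8 of 11 homeostatic genes. No member passed the threshold of 0.05 on the adjusted p (edgeR quasi-likelihood test, Benjamini-Hochberg over 15622 genes; 0% of all genes were called), and DESeq2 called none either (0.442% of all genes). At an unadjusted p under 0.05, 14 members were lower and 0 higher (40% and 0%), against 6.59% lower and 4.57% higher of all genes. The members share cells and libraries, so they are not independent of one another.

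In KO-labelled mice, 33 of 35 members had a negative training log2 fold change (50.9% of all genes did), from -0.70 to 0.22 with a median of -0.30, against -0.003 for all genes. The 12 members with an unadjusted p under 0.05 were all lower, and that was 34.3% of the members against 2.04% of all genes (0.973% of all genes were higher), while no member passed the test (0% of all genes were called; the smallest adjusted p was 1.00 with edgeR and 0.247 with DESeq2, which called 0.0448% of all genes). The values of 13 members did not overlap between the groups, all of them lower in trained mice (37.1%, against 4.54% of all genes). Those 13 were Csf1r, Cx3cr1, Trem2, Ptprc, Cd33, Laptm5, Hpgds, Fcgr3, Csf3r, P2ry13, Cd53, Spi1 and Irf8. The authors' deposited table of this comparison held no called member, with a smallest adjusted p of 0.816, while 0.0716% of all its genes were called.

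Csf1r, the receptor for the cytokines that keep microglia alive, was at 109, 88.1 and 105 CPM in KO-labelled trained mice, against 120.3, 129.6 and 145 CPM in KO-labelled house controls, that is, a fitted log2 difference of -0.39 ± 0.10 (SE; edgeR adjusted p 1.00). The fractalkine receptor Cx3cr1 was at 57.2, 50.8 and 52.5 CPM in KO-labelled trained mice, against 64.7, 68.3 and 72.9 CPM in KO-labelled house controls, that is, a fitted log2 difference of -0.36 ± 0.09 (edgeR adjusted p 1.00). Both had all 3 trained values below all 3 house control values, and so did the members named next. Trem2, the lipid-sensing receptor, was at 6.28, 4.89 and 6.16 CPM in KO-labelled trained mice, against 7.65, 9.41 and 9.65 CPM in KO-labelled house controls, that is, a fitted log2 difference of -0.62 ± 0.17 (edgeR adjusted p 1.00). Ptprc was at 2.49, 2.03 and 3.15 CPM in KO-labelled trained mice, against 3.97, 3.35 and 5.16 CPM in KO-labelled house controls, with -0.70 ± 0.22 (edgeR adjusted p 1.00). Part of Csf1r's exons (873 bases) overlap Hmgxb3 on the opposite strand, and whether the counting used strand is not stated. Reads of Fcgr3 can be shared with its close relative Fcgr2b, so its level is uncertain.

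In WT mice, 27 of 35 members had a negative training log2 fold change (51.7% of all genes did), with a median of -0.14 and a range from -0.49 to 0.55, against a median of -0.01 for all genes. At an unadjusted p under 0.05, 3 members were lower and 0 higher (8.57%, against 5.04% of all genes lower and 4.78% higher), and the values of 5 members did not overlap, all of them lower in trained mice (14.3%, against 7.80% of all genes). No member passed the test (0% of all genes were called), the smallest adjusted p being 0.502 with edgeR, 0.317 with DESeq2 (0.102% of all genes called) and 0.475 in the authors' deposited table, which called 0.117% of its genes. Hpgds, the synthase of prostaglandin D2 in microglia, was at 5.03, 4.42 and 4.94 CPM in WT trained mice, against 6.17, 8.13 and 5.95 CPM in WT house controls, that is, a fitted log2 difference of -0.49 ± 0.17 (edgeR adjusted p 0.502). Unc93b1, which carries toll-like receptors to endosomes, was at 14.3, 12.9 and 12.8 CPM in WT trained mice, against 14.7, 17.3 and 18.4 CPM in WT house controls, with -0.34 ± 0.15. Ly86 (MD-1), a partner of the receptor RP105, was at 4.45, 3.93 and 5.13 CPM in WT trained mice, against 5.71, 6.03 and 6.40 CPM in WT house controls, with -0.42 ± 0.18. For these 3 genes, and for the Fc receptor chain Fcer1g (3.64, 2.25 and 3.64 CPM in WT trained, 4.63, 4.56 and 3.97 CPM in WT house control mice, log2 fold change -0.46 ± 0.26), all trained values lay below all house control values, and the adjusted p was 0.502 to 0.505.

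Averaged over the genotypes, the smallest p of any member in the training comparison was that of Hpgds. It averaged 5.05 ± 0.67 CPM in trained mice and 7.09 ± 0.94 CPM in house control mice (SD, n = 6 each), that is, a fitted log2 difference of -0.49 ± 0.12 (SE) with an adjusted p of 0.414 by edgeR and 0.0585 by DESeq2, neither under the threshold. Cx3cr1 averaged 53.99 ± 4.13 CPM in trained and 63.6 ± 6.55 CPM in house control mice (SD, n = 6 each; log2 fold change -0.23 ± 0.06, edgeR adjusted p 0.414). Csf1r averaged 101 ± 7.61 CPM in trained and 120.3 ± 15.2 CPM in house control mice (log2 fold change -0.24 ± 0.07, edgeR adjusted p 0.414). Ptprc averaged 2.71 ± 0.415 CPM in trained and 3.85 ± 0.726 CPM in house control mice (log2 fold change -0.51 ± 0.15, edgeR adjusted p 0.414).

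**Figure D2:**
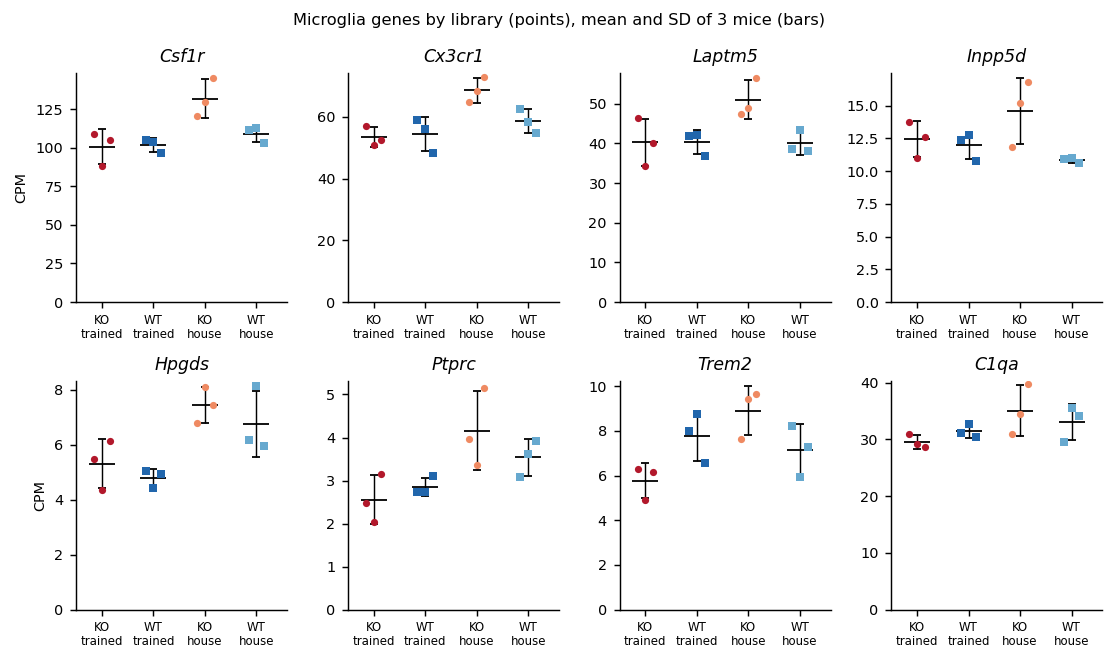
CPM of 8 members, one point per library and group, with the mean and SD of 3 mice. The mean of each of the 8 genes is highest in the KO-labelled house controls. Their values lie above all WT house control values for Csf1r, Cx3cr1, Laptm5 and Inpp5d, and overlap them for Hpgds, Ptprc, Trem2 and C1qa.

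The other genes of these pathways were read from lists that hold no member. Among 24 tested genes of a second list of microglia-enriched genes, 20 had a negative mean training log2 fold change (median -0.15; 8 with an unadjusted p under 0.05), including Pros1, which encodes the phagocytosis bridge protein S, at -0.48 (edgeR adjusted p 0.414), and the receptor Tgfbr2 at -0.46 (adjusted p 0.414). Genes linked to disease-associated microglia had 19 of 21 negative (median -0.27), and signalling genes downstream of Trem2 and Fc receptors had 9 of 11 (median -0.04). Of 18 ligands and receptors that act on microglia, 11 had a negative value, with the growth factor Csf1 at -0.27 and the neuronal ligand Cx3cl1 at 0.26 (edgeR adjusted p 0.414 for both). No gene of these lists was called in either mean comparison. Which cells of the tissue their transcripts came from was not tested.

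Markers of other cell types also had mostly negative training values. All 10 astrocyte markers (median -0.21), all 10 oligodendrocyte markers (-0.59), all 9 endothelial markers (-0.27), all 13 choroid plexus markers (-0.34), all 10 striatum and septum markers (-0.86) and all 9 thalamus markers (-0.78) had negative mean training log2 fold changes, and so did 9 of 10 leptomeningeal markers (-0.78). All 6 markers of CA1 pyramidal neurons (0.22) and 6 of 8 markers of dentate granule neurons (0.03) had positive ones. At an unadjusted edgeR p under 0.05, 5 of 10 astrocyte, 5 of 9 endothelial and 5 of 9 thalamus markers were lower in that comparison, beside 14 of 35 members. There were 2 of 10 among leptomeningeal markers and 0 among oligodendrocyte, choroid plexus, striatum, CA1 and dentate markers. For training in KO-labelled mice there were 4 of 10 astrocyte markers, beside 12 of 35 members. The medians and signs of the training values differed between the genotypes in several of these lists. In the genotype by treatment interaction, edgeR called no gene of these lists (0% of all genes). At an unadjusted p under 0.05 it had 0 of 13 choroid plexus, 0 of 10 striatum, 1 of 9 perivascular macrophage and 1 of 10 leptomeningeal markers. The lists were not tested as sets. In KO-labelled mice, 12 of 13 choroid plexus markers (median 0.27) and 9 of 10 striatum and septum markers (0.28) had positive training values, while in WT mice all 13 (-0.98) and all 10 (-1.89) were negative. Perivascular macrophage markers were negative in 5 of 9 genes in KO-labelled mice (-0.20) and in 9 of 9 in WT mice (-1.28), and leptomeningeal markers in 6 of 10 (-0.12) and 10 of 10 (-1.34). Astrocyte markers were negative in 10 of 10 genes in KO-labelled mice (-0.24) and in 9 of 10 in WT mice (-0.18), and thalamus markers in 9 of 9 in both (-0.76 and -0.88). Perivascular and border macrophages share many transcripts with microglia, and 8 of 9 of their markers had a negative mean training value (median -0.43), and their summed level was 14.9 to 26.3 CPM in KO-labelled trained, 19.8 to 24.3 CPM in WT trained, 17.6 to 35.3 CPM in KO-labelled house control and 28.9 to 48.2 CPM in WT house control libraries. Summed astrocyte markers were 4972 to 5511 CPM in KO-labelled trained, 4942 to 6142 CPM in WT trained, 6082 to 7204 CPM in KO-labelled house control and 4543 to 6519 CPM in WT house control libraries. The part of these lists in the microglial values was not tested. Blood leukocyte markers were near 0: S100a8 and S100a9 had at most 3 counts in any library, Cd3e at most 5 and Cd79a at most 8, and only 2 of 16 leukocyte genes passed the filter. Some inflammatory cytokines were also near 0, with at most 5 counts of Il1b, 2 of Tnf, 2 of Il6 and 4 of Ccl2. Others were not: Il18 had 136 to 333 counts, Cxcl10 up to 29 and Il1a 6 to 21. Of the 20 inflammatory cytokine and sensor genes listed, 12 passed the filter.

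The members' median training value stayed negative in every alternative run, but its size and the counts at an unadjusted p under 0.05 changed with single libraries. The mean training median was -0.14 without WT house control 2 and 3 and KO-labelled house control 3. It was -0.16 in the 8 libraries with animal numbers below 1300. There, 6 members were lower at an unadjusted p under 0.05, against 3.03% of all genes. Leaving out WT trained 3 gave 9 such members in the mean comparison (7.53% of all genes). Without KO-labelled house control 3 alone, the KO-labelled training median was -0.20. That comparison then had 6 members lower at an unadjusted p under 0.05 (1.34% of all genes). It had 7 without KO-labelled trained 2 (2.48% of all genes) and 18 without KO-labelled house control 1 (3.72%). Without replicate 2 of both KO-labelled groups it had 5 (1.34%). In WT mice the median was -0.05 without WT trained 3, -0.21 without WT house control 1 and -0.04 in the libraries with animal numbers below 1300. In WT mice, 0 members were lower at an unadjusted p under 0.05 without WT house control 2 (2.61% of all genes). Without WT house control 3, 1 was lower (3.01%), and 0 were higher in both runs (1.49% and 2.40% of all genes). Without the 3 house control libraries, only 1 WT house control library was left, so no count of members at that level is given for that run.

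Genotype label was compared within house controls, within trained mice and as the mean of both. In house controls, 30 of 35 members had a positive KO over WT log2 fold change, from -0.16 to 0.90 with a median of 0.20, against -0.0008 for all genes, and 49.8% of all genes were positive. No member passed the test (edgeR called 0.0128% of all genes, DESeq2 1.29%, and the authors' deposited table called 0.558%), the smallest adjusted p being 0.347, 0.136 and 0.273 in that order. At an unadjusted p under 0.05, 5 members were higher and 0 lower (14.3%, against 6.11% of all genes higher and 4.56% lower). The values of 8 members did not overlap, all higher in KO-labelled mice (22.9%, against 6.94% of all genes): Gpr34, Selplg, Csf1r, Cx3cr1, Itgam, Inpp5d, Laptm5 and Cd53.

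Inpp5d encodes SHIP1, a phosphatase that dampens signalling of immune receptors. It was at 11.8, 15.2 and 16.8 CPM in KO-labelled house controls, against 10.95, 10.97 and 10.6 CPM in WT house controls, that is, a fitted log2 difference of 0.43 ± 0.14 (SE; edgeR adjusted p 0.347). Laptm5, a lysosomal protein of immune cells, was at 47.3, 49.0 and 56.6 CPM in KO-labelled house controls, against 38.6, 43.3 and 38.2 CPM in WT house controls, with 0.35 ± 0.12 (edgeR adjusted p 0.356). In both genes all KO-labelled values were above all WT values. Csf1r was at 120.3, 129.6 and 145 CPM in KO-labelled house controls, against 111, 113 and 103 CPM in WT house controls (log2 fold change 0.27 ± 0.10, edgeR adjusted p 0.380), and Cx3cr1 at 64.7, 68.3 and 72.9 CPM in KO-labelled house controls, against 62.5, 58.3 and 54.9 CPM in WT house controls (0.23 ± 0.09, edgeR adjusted p 0.419).

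The other lists of microglia-related genes did not all follow the members in house controls. The second list of microglia-enriched genes had 17 of 24 positive KO over WT values with a median of 0.06. Signalling genes downstream of Trem2 and Fc receptors had 7 of 11 positive (0.15), and genes linked to disease-associated microglia had 17 of 21 negative (-0.23). Levels in that last list reached 2238 CPM for Apoe and 2691 CPM for Fth1. Which cells of the tissue the transcripts of these lists came from was not tested. Perivascular macrophage, choroid plexus, leptomeningeal and thalamus markers had negative values in 9 of 9, 13 of 13, 10 of 10 and 9 of 9 genes (medians -1.21, -1.98, -1.54 and -0.58). Endothelial markers were negative in 8 of 9 genes (-0.34; 6 with an unadjusted p under 0.05) and dentate granule neuron markers in 7 of 8 (-0.34). Of 10 astrocyte markers 8 were positive (median 0.06), as were 8 of 10 striatum and septum markers (0.33) and 5 of 6 markers of CA1 pyramidal neurons (0.37). The part of these lists in the values was not tested. Without KO-labelled house control 3 the members' median was 0.12, with 11 members negative. In that run 2 were higher at an unadjusted p under 0.05 (5.63% of all genes). Without WT house control 3 there were also 2 (4.08%), and without KO-labelled house control 1 there were 9 (5.52%). Without WT house control 2 and 3 and KO-labelled house control 3 the members' median was 0.18. In the libraries with animal numbers below 1300 no member was higher or lower at that level (2.35% and 2.51% of all genes).

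In trained mice, 20 of 35 members had a negative KO over WT value (52.4% of all genes) and 15 a positive one, with a median of -0.01 for the members and -0.01 for all genes. No member passed the test (edgeR called 0.0128% of all genes and DESeq2 0.679%), 1 member was lower and 0 higher at an unadjusted p under 0.05 (2.86%, against 2.71% of all genes lower and 3.74% higher), and the values of 1 member were lower and of 1 higher without overlap (2.86% each, against 6.38% and 7.61% of all genes). That member was Trem2, at 6.28, 4.89 and 6.16 CPM in KO-labelled trained mice, against 8.01, 8.75 and 6.55 CPM in WT trained mice, that is, a fitted log2 difference of -0.43 ± 0.17 (SE; edgeR adjusted p 0.739), and its groups did not overlap. Aif1, which encodes IBA1, was higher without overlap at 2.72, 2.44 and 3.38 CPM in KO-labelled trained mice, against 2.33, 1.93 and 2.41 CPM in WT trained mice (0.36 ± 0.27, edgeR adjusted p 0.913). Without KO-labelled trained 2, 1 member was higher and 0 lower at an unadjusted p under 0.05 (3.12% and 1.95% of all genes). There were 0 without WT trained 1 or 2, or without replicate 2 of both KO-labelled groups. In those runs 2.84% to 3.96% of all genes were higher and 1.93% to 2.25% lower. The authors' deposited table of this comparison held no called member and called 0.834% of its genes, with a smallest adjusted p of 0.678 among the members.

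The mean genotype values were positive in 25 of 35 members (48% of all genes; median 0.10), edgeR called 0 members (0.576% of all genes), DESeq2 0 members (4.64%), and 2 members were higher at an unadjusted p under 0.05 (5.71%, against 8.54% of all genes higher and 5.89% lower). Those were Selplg at 33.3 ± 3.37 CPM in KO-labelled and 29.3 ± 2.51 CPM in WT mice (SD, n = 6 each; log2 fold change 0.18 ± 0.07, edgeR adjusted p 0.269), and Inpp5d at 13.5 ± 2.18 CPM in KO-labelled and 11.4 ± 0.90 CPM in WT mice (0.24 ± 0.10, edgeR adjusted p 0.278). Leaving out single libraries put the median between 0.057 and 0.128. The number of members higher at an unadjusted p under 0.05 then ran from 0 to 6. It was 0 without KO-labelled trained 1 or WT trained 3 (7.57% and 6.25% of all genes higher). It was 6 without KO-labelled house control 1 or KO-labelled trained 2 (8.38% and 9.18%). Among the other lists of microglia-related genes, positive mean genotype values were found in 14 of 24 microglia-enriched genes (median 0.04) and 9 of 11 signalling genes (0.06). They were also found in 9 of 18 ligands and receptors (-0.01) and 6 of 21 disease-associated genes (-0.11). The B-cell linker Blnk was at 0.62 ± 0.13 (SE; edgeR adjusted p 0.0648) and the phagocytic receptor Mertk at 0.32 ± 0.09 (edgeR adjusted p 0.129). Negative values were found for the growth factor Csf1 (-0.22 ± 0.07, edgeR adjusted p 0.156), the bacterial lipoprotein sensor Tlr2 (-1.10 ± 0.35, edgeR adjusted p 0.188) and Tgfbr2 (-0.39 ± 0.16, edgeR adjusted p 0.301). None of these was under the threshold.

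The genotype by treatment interaction asks whether the training difference in KO-labelled mice differed from that in WT mice, and it had 26 of 35 members negative (51.4% of all genes; median -0.17, against -0.007 for all genes). Only Trem2 had an unadjusted p under 0.05 (-0.75 ± 0.24, edgeR adjusted p 1.00; 2.86% of members, against 0.762% of all genes lower and 0.743% higher), and neither edgeR nor DESeq2 called a member (0% of all genes with each). Leaving out single libraries moved that count, given here with the share of all genes lower. There were 6 members lower without KO-labelled house control 1 (0.978%) and 5 without KO-labelled trained 1 (1.06%). There were 3 without WT house control 1 (3.37%) or WT trained 3 (0.853%). Without WT house control 2 (0.387%) or KO-labelled trained 3 (0.845%) there were 2. Without KO-labelled house control 2, 1 was higher and 1 lower (1.55% and 0.901% of all genes). Without replicate 2 of both KO-labelled groups 1 was higher and 0 lower (0.871% and 0.521%). Thus the larger training values of KO-labelled mice were not shown to differ from those of WT mice. The KO-labelled house controls enter both the house control genotype comparison and the KO-labelled training comparison, with opposite signs, and the values of those comparisons are given side by side only.

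**Figure D3:**
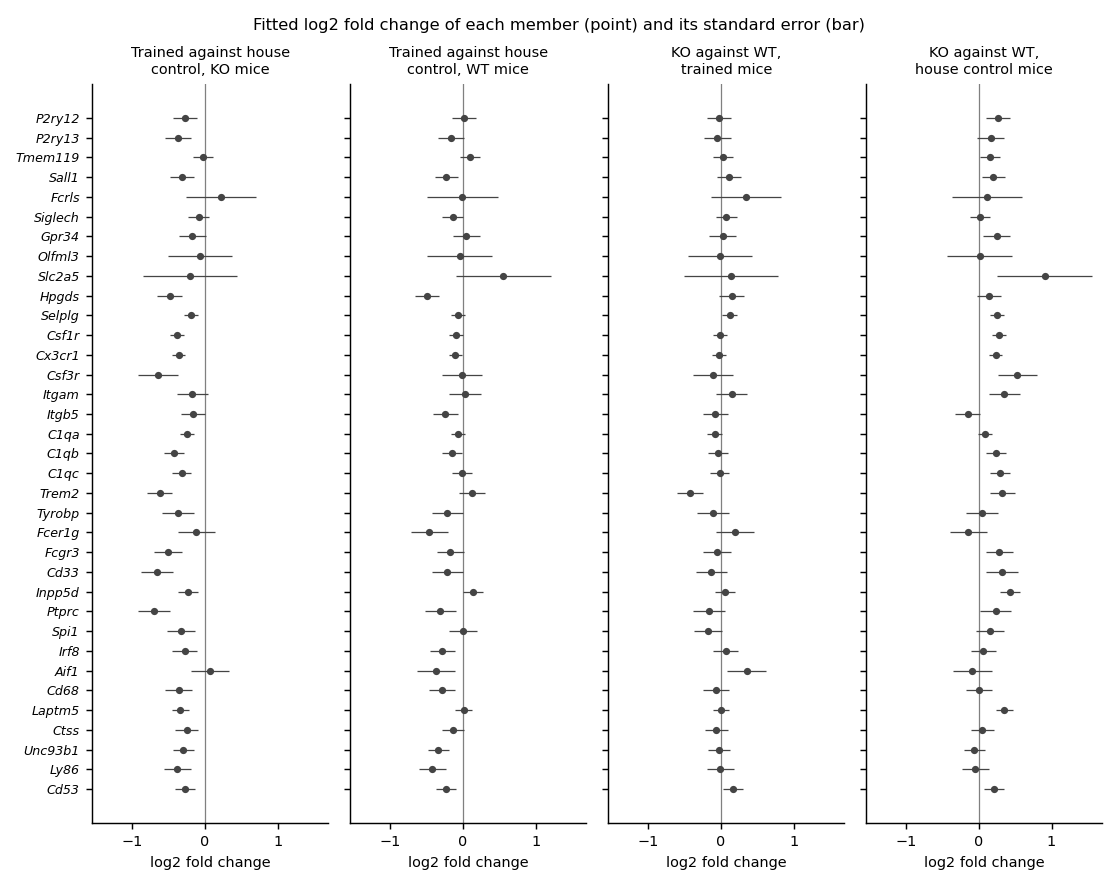
Fitted log2 fold change of each of the 35 members (point) with its standard error (bar) in 4 comparisons that share libraries. In KO-labelled mice 33 of 35 points lie left of 0 for training, and in house controls 30 of 35 lie right of 0 for KO over WT, with none passing the adjusted threshold.

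The extreme values of the members gathered in few libraries. KO-labelled house control 3 held the highest of the 12 values for 19 of 35 members (54.3%, against 7.10% of all tested genes), and KO-labelled trained 2 the lowest for 13 (37.1%, against 7.53% of all tested genes). As given above, the former was among the libraries rich in thalamus markers, and the latter had the most striatum markers. The part of neighbouring tissue in these extremes was not tested. Within KO-labelled house controls, replicate 1 was the lowest of its group for 27 of 35 members (77.1%, against 33.96% of all genes). The summed level of the members was 668 ± 46.7 CPM in KO-labelled trained, 670.1 ± 36.4 CPM in WT trained, 815 ± 73.7 CPM in KO-labelled house control and 720 ± 35.4 CPM in WT house control mice (SD, n = 3 each). The KO-labelled house controls spread from 739 to 887 CPM, and their lowest value lay below the highest WT house control value, 743 CPM.

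**Figure D4:**
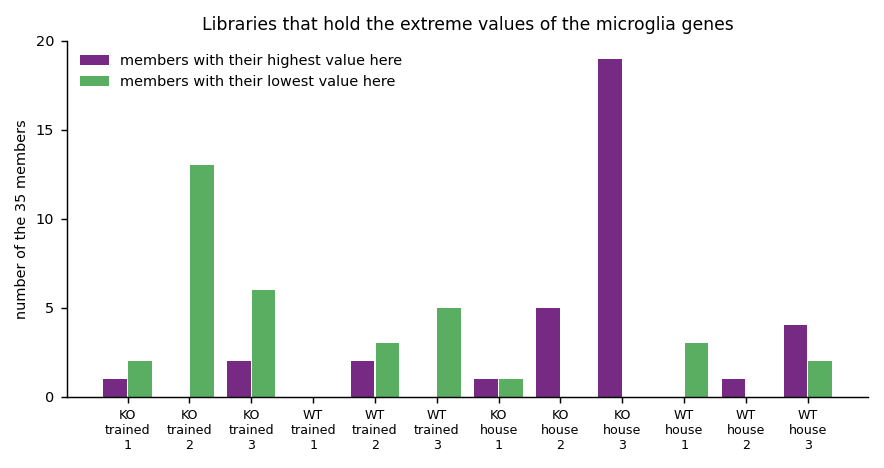
Number of the 35 members whose highest and lowest value over 12 libraries lies in each library. KO-labelled house control 3 holds 19 of the highest values and KO-labelled trained 2 holds 13 of the lowest.

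Members differed in how steady they were. The median SD within a group was 0.211 on the log2 scale, against 0.169 for the 10625 tested genes of the members' level range, and 27 of 35 members had a highest value less than 2 times their lowest. Cx3cr1 (SD 0.108), Csf1r (0.117) and C1qa (0.121) varied least. Slc2a5, a fructose transporter, varied most (SD 0.971, 97.2 percentile of those genes, range 0.72 to 5.89 CPM), followed by the Fc receptor-like gene Fcrls (0.667, 94.2) and the secreted glycoprotein gene Olfml3 (0.658, 94.0). These 3 were singled out after their values were seen.

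Fcrls (chromosome 3, 87250758 to 87263738, GRCm38) was at 15.8, 13.002 and 10.5 CPM in KO-labelled trained, 5.84, 18.0 and 7.20 CPM in WT trained, 18.0, 7.39 and 8.35 CPM in KO-labelled house control and 5.71, 11.5 and 13.96 CPM in WT house control libraries. Olfml3 (chromosome 3, 103722222 to 103738001) was at 14.2, 12.96 and 10.3 CPM in KO-labelled trained, 8.09, 17.3 and 12.4 CPM in WT trained, 18.0, 9.94 and 11.3 CPM in KO-labelled house control and 4.73, 14.7 and 19.5 CPM in WT house control libraries. The order of the 3 libraries was the same for both genes in all 4 groups, which held for 3 of the 595 pairs of members. The remaining pairs, Fcgr3 with Ctss and Inpp5d with Laptm5, lie on different chromosomes. Of all 15622 tested genes, 7 had the order of Fcrls, and 1 of these, Olfml3, lies on chromosome 3 (4.87% of tested genes with coordinates do). A link between the shared order and the chromosome was not tested. Slc2a5 was at 2.45, 3.92 and 2.47 CPM in KO-labelled trained, 2.45, 4.01 and 1.53 CPM in WT trained, 0.84, 3.50 and 5.89 CPM in KO-labelled house control and 0.72, 2.80 and 1.86 CPM in WT house control libraries. No group was apart from the others in any of the 3 genes.

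**Figure D5:**
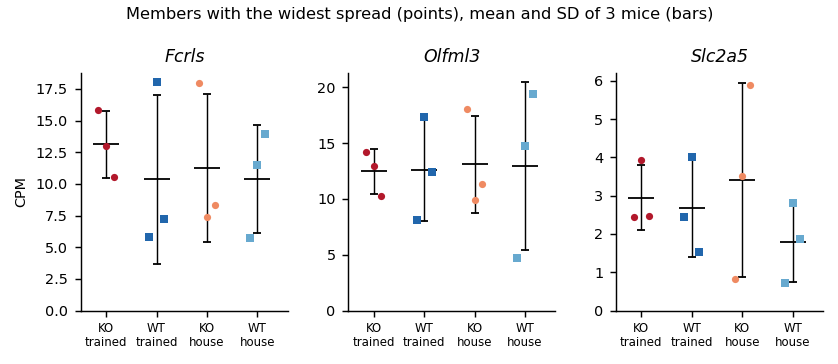
CPM of Fcrls, Olfml3 and Slc2a5, one point per library and group, with the mean and SD of 3 mice. All 4 groups overlap in each gene, and Slc2a5 has the widest spread, from 0.72 to 5.89 CPM.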

How the data were processed

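Per the labels' protocols, libraries were made from polyadenylated RNA with NEBNext kits. The authors deposited 1 file of raw counts a library, whole reads per gene symbol. Per the submitters' processing notes, reads were handled with HTSeq 0.9.1, TopHat2 2.1.1, Bowtie2 2.3.4.2, cutadapt 1.18 and DESeq2 1.18.1 on mm10. The annotation and strand use of the counting are not stated there. The authors' 4 deposited tables of pairwise comparisons give, per the file headers, mean signal, log2 fold change and its error, a score (Wald statistic), and p-value columns.

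Counts were fitted with edgeR 4.0.16 in R 4.3.3: filterByExpr (minimum count 10, minimum total 15), TMM, robust quasi-likelihood, 4 group means over 12 libraries with 8 residual degrees of freedom, and Benjamini-Hochberg adjustment at 0.05 over 15622 genes. DESeq2 1.42.0 was an alternative. Each standard error was taken from the fold change and its F statistic. Lengths are unions of GENCODE vM21 exons, which matched 23334 of 24421 symbols. On simulated counts of 15475 genes, the house control genotype comparison found 13.4% of the genes set at 1.5-fold, 68.7% of those at 2-fold and 81.8% of those at 4-fold. A floor of 3 counts was 0.109 to 0.152 CPM, for counting error only. Replicate pairs differed beyond sampling noise (chi-square per degree of freedom 14.9 to 106), and 0 were identical.

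The members, lists, tests and libraries left out were chosen with earlier results of these data known. Values in every library are given for the member highest per length in each role and for the 4 members with the smallest p in a comparison. Fcrls, Olfml3 and Slc2a5 were added after their values were seen.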

Additional observations from a re-analysis of the deposited data

How the results depend on the processing

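With edgeR, 0 members were called in each of the 7 comparisons under every alternative run, and DESeq2 also called 0. The members' median kept within 0.112 of its value (log2, the SD of that median between replicates) in every alternative. That margin is wider than the mean genotype median (0.096) and the trained genotype median (-0.014), so it does not show that these kept their sign. Leaving out single libraries put the trained genotype median between -0.066 and 0.041 and the WT training median between -0.21 and -0.046. Leaving out single libraries put the number of members with a negative value at 2 to 11 for KO against WT in house controls (5 with all libraries), 10 to 24 for KO against WT in trained mice (20) and 5 to 10 for the mean genotype comparison (10). Without replicate 2 of both KO-labelled groups, which carried striatal RNA, 12 members were negative for KO against WT in trained mice. The cause was not tested. Over all genes, the mean genotype comparison had 60 higher and 30 lower calls with edgeR, 5 and 3 without WT trained 3 to 203 and 65 without WT house control 1, 512 and 213 with DESeq2, 115 and 51 with the animal number series as a covariate, 42 and 17 with no filter, 18 and 8 without those KO-labelled libraries, 2 and 0 in the first animal series, and 1 and 0 without WT house control 2 and 3 and KO-labelled house control 3. In house controls KO against WT had 1 and 1 calls with edgeR and 155 and 47 with DESeq2, and in trained mice 1 and 1 against 67 and 39. Training had 0 calls with edgeR, and DESeq2 had 3 higher and 13 lower in WT mice, 4 and 3 in KO-labelled mice and 25 and 44 as the mean. No paired analysis was possible because the replicate numbers only follow accession order. Depth limits the lowest members: Slc2a5 had as few as 14 counts in a library. Without WT house control 2 and 3, the lone WT house control library was assumed to vary like the other groups.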
